A study of Drosophila melanogaster with 6 samples.

Results

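Aminoacyl-tRNA synthetases join each amino acid to its transfer RNA (tRNA), the step that lets the ribosome read a codon as an amino acid. Animal cells make these enzymes from nuclear genes in separate sets, one for the cytosol and one that is imported into mitochondria, where it charges the tRNAs encoded by the mitochondrial genome. Some genes serve both compartments, and in the cytosol several of the enzymes are held in a multi-synthetase complex. Flight muscle is packed with mitochondria, so it uses both sets.

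The genes were taken by symbol: a 3-letter amino acid code followed by RS for a cytosolic enzyme or RS-m for a mitochondrial one, together with GluProRS, the fused cytosolic enzyme for glutamate and proline. The rule found 33 of the 17494 genes in the count table, 18 cytosolic and 15 mitochondrial, and all 33 had enough counts to be tested. It does not take alpha-PheRS and beta-PheRS, the subunits of the cytosolic phenylalanine enzyme, which are counted below with the partners of the enzymes.

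The libraries were made from poly(A) RNA of indirect flight muscles that were dissected by hand from Drosophila melanogaster pupae at 64 h after puparium formation, with muscles of 6 to 8 pupae pooled in each sample. In the M1BP RNAi group (n = 3) Mef2-GAL4 drove a UAS-M1BP RNAi transgene, and the WT group (n = 3) carried Mef2-GAL4 without it. M1BP is a zinc finger protein that binds promoters of genes with basic cellular functions, and the comparison asks which transcripts depend on it in developing flight muscle. Mef2-GAL4 is active in muscle from the earliest myogenic stages, so the muscles had been exposed throughout their development, and the RNAi group rests on 1 hairpin line. Mef2-GAL4 is not restricted to flight muscle.

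The libraries held between 42215400 and 54890681 counts, and 41059 to 83541 of these fell on the 33 genes. M1BP, the targeted gene, was at 8.19, 6.97 and 8.83 CPM (counts scaled to a common library size after TMM normalisation) in WT and at 3.00, 3.57 and 2.63 CPM in M1BP RNAi, so each library matched its label. The control libraries differed among themselves. WT replicate 2 was the farthest from the others over all genes, with chi-square values per degree of freedom at 442 and 448 against WT replicates 1 and 3, which were at 67.2 to each other, and it had the largest share of counts on genes of the mitochondrial genome (44.2%). WT replicate 3 stood apart by roX1. Its level of roX1, a non-coding RNA of the male dosage compensation complex, was 22.2 CPM, against 0.0414 and 0.206 CPM in WT replicates 1 and 2 and 30.2 to 63.1 CPM in M1BP RNAi. The labels give no sex for the pupae. WT replicate 3 lay above the mean of the other WT libraries for 31 of the 33 synthetase genes, AspRS-m and TyrRS-m being the exceptions, with a median log2 difference of 0.25. For that reason full values, where given below, are given library by library. Genes of the mitochondrial genome took 26.2% to 44.2% of counts in WT and 15.1% to 23.4% in M1BP RNAi. The TMM factors also split by group, at 0.677 to 0.918 in WT and 1.16 to 1.31 in M1BP RNAi. The direction of small fold changes therefore rests on this scaling. All 6 flight muscle markers were detected in every library, and their summed level was 111000 to 127400 CPM in WT and 78990 to 83230 CPM in M1BP RNAi.

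Among the 33 synthetase genes, 1 passed the threshold of an adjusted p of 0.001 or less with a change of at least 1.5-fold (edgeR's quasi-likelihood test, Benjamini-Hochberg adjustment over all 8806 genes tested). That gene was ArgRS-m, the mitochondrial arginyl-tRNA synthetase, which fell. The same threshold was passed by 5.09% of all genes tested, beside 3.03% of the synthetases. An unadjusted p under 0.05 was found for 23 of the 33, and for 41.4% of all genes tested. With the looser rule of an adjusted p of 0.05 and no fold minimum, 8 synthetase genes were higher and 6 lower in M1BP RNAi, where 13.8% of all genes were higher and 16.9% lower. The ranges of the 3 WT and the 3 M1BP RNAi libraries did not overlap for 22 of the 33 genes, 13 higher and 9 lower. Among all genes tested, 21.5% were higher and 25.0% lower without overlap. In bulk tissue, fewer cells of a type and less RNA per cell cannot be told apart.

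**Figure D1:**
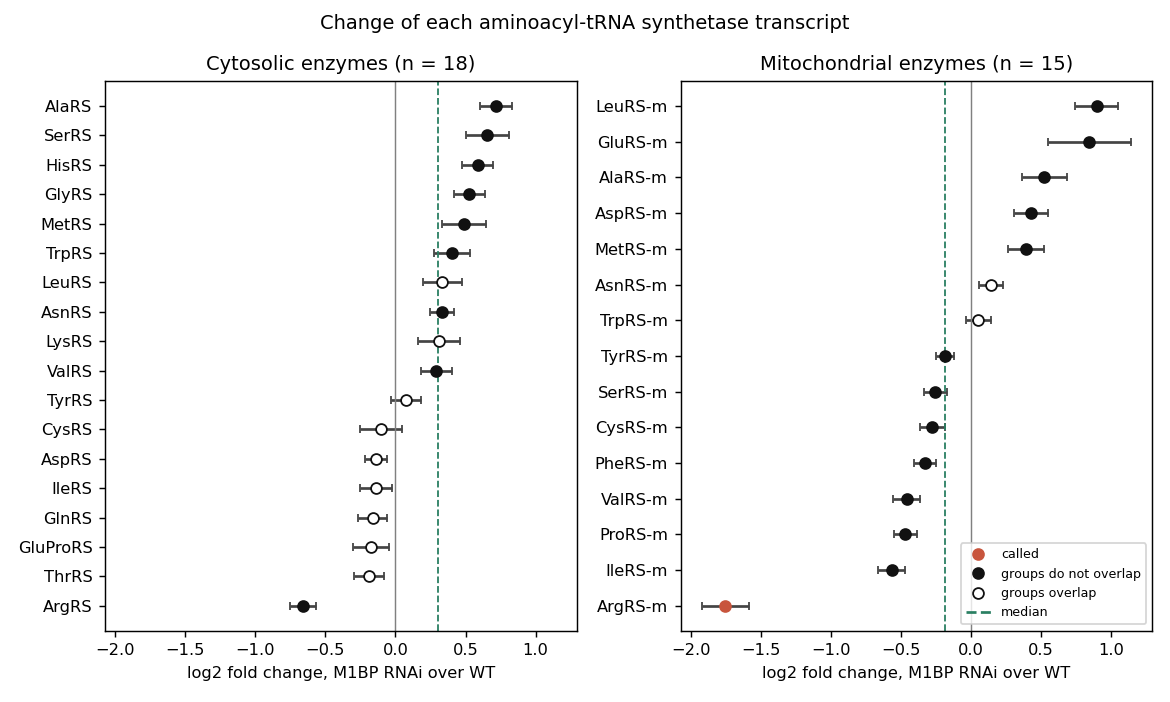
Log2 fold change of each synthetase transcript (x axis, M1BP RNAi over WT) with its standard error, for the 18 cytosolic (left) and 15 mitochondrial enzymes (right), ordered by size; filled points mark genes whose 3 WT and 3 M1BP RNAi libraries do not overlap and the dashed line is the median. ArgRS-m, in red, is the gene that was called, and ArgRS is the lowest cytosolic enzyme.

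ArgRS-m lies on chromosome arm 3R of the dm6 build, from 7887045 to 7890150 on the forward strand, in 5 exon blocks. The counts were 516, 286 and 575 over WT replicates 1, 2 and 3, against 190, 161 and 189 over the M1BP RNAi replicates. In CPM these were 10.7, 9.82 and 14.5 in WT and 3.43, 3.23 and 3.71 in M1BP RNAi. Every M1BP RNAi library was thus far below every WT library, and WT replicate 3 was the highest of all. The WT mean was 11.7 ± 2.48 CPM and the M1BP RNAi mean 3.46 ± 0.245 CPM (SD, n = 3 each). By edgeR the log2 fold change was -1.75 ± 0.17 (SE) with an adjusted p of 5.46e-04, leaving 29.7% of the WT level.

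The call of ArgRS-m depended on which libraries entered. Leaving out WT replicate 1 or 2, or any of M1BP RNAi replicates 1, 2 and 3, gave edgeR adjusted p-values of 0.00427, 0.00162, 0.00465, 0.00549 and 0.00426 for ArgRS-m, above the threshold of 0.001. Calls over all genes also dropped in these fits, to between 26 and 58 higher and between 44 and 106 lower, in place of 194 and 254. Without WT replicate 3 the adjusted p was 2.35e-04, and over the 6 fits the log2 fold change of ArgRS-m stayed between -1.85 and -1.52. With the level of roX1 as a covariate it was -2.16 ± 0.13 (SE, edgeR adjusted p = 1.50e-04). That covariate largely follows the group, since among the controls roX1 was high in WT replicate 3 only. The fit with roX1 therefore leans on WT replicate 3. Against that library alone the log2 ratio of ArgRS-m was -2.07.

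ArgRS-m shares 325 exonic bases with mRpS9 on the opposite strand, which encodes a protein of the small mitochondrial ribosomal subunit. mRpS9 was at 315, 324 and 275 CPM in WT and at 314, 330 and 337 CPM in M1BP RNAi, so the groups overlapped for the gene on the other strand (log2 fold change 0.10 ± 0.08 SE, edgeR adjusted p = 0.393). Across the table, 39 genes that lie wholly inside exons of a well-covered opposite-strand gene had a median of 0.518% of its counts per base, so the counts keep the strands apart. CG17816, which starts 312 bases upstream of ArgRS-m on the opposite strand, had a log2 fold change of -0.36 ± 0.35 (SE) with overlapping groups (edgeR adjusted p = 0.490).

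Its cytosolic counterpart, ArgRS, was the synthetase with the lowest fold change in the cytosol. ArgRS charges arginine tRNA for cytosolic translation and is a member of the multi-synthetase complex in mammals; its gene is on chromosome X, from 15841769 to 15844145 on the reverse strand. The level was 39.0, 38.1 and 45.3 CPM in WT and 24.4, 25.7 and 27.3 CPM in M1BP RNAi. The groups did not overlap, and the log2 fold change was -0.66 ± 0.09 (SE). It was not called by edgeR (adjusted p = 0.00285), while DESeq2 called ArgRS lower with an adjusted p of 9.46e-06. Both arginine enzymes were thus the lowest of their compartment by fold change.

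Of the other cytosolic enzymes, those furthest above WT were AlaRS, SerRS and HisRS, none of which passed the threshold. AlaRS, the alanyl-tRNA synthetase, was at 37.7, 34.0 and 44.7 CPM in WT and 60.9, 67.8 and 62.3 CPM in M1BP RNAi. All 3 knockdown libraries lay above all 3 controls for AlaRS (log2 fold change 0.72 ± 0.11 SE, edgeR adjusted p = 0.00443). SerRS, which charges serine tRNA, was at 12.3, 11.5 and 16.5 CPM in WT and at 19.1, 22.7 and 21.8 CPM in M1BP RNAi (log2 fold change 0.65 ± 0.15 SE, edgeR adjusted p = 0.0189). The lowest M1BP RNAi library of SerRS was close to WT replicate 3, yet the groups did not overlap. HisRS, the histidyl-tRNA synthetase, was at 26.2, 30.5 and 31.9 CPM in WT and at 41.1, 49.2 and 42.7 CPM in M1BP RNAi (log2 fold change 0.59 ± 0.11 SE, edgeR adjusted p = 0.00787). The groups of HisRS did not overlap either, and 255 exonic bases of HisRS are shared with Bx on the same strand. DESeq2, which called 11.2% of the genes it tested at the same threshold, called AlaRS and HisRS higher.

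The other cytosolic genes whose M1BP RNAi libraries all lay above WT were GlyRS, MetRS, TrpRS, AsnRS and ValRS, the enzymes for glycine, methionine, tryptophan, asparagine and valine. Their log2 fold changes were 0.53 ± 0.11, 0.49 ± 0.16, 0.41 ± 0.13, 0.33 ± 0.08 and 0.29 ± 0.11 (SE), with edgeR adjusted p-values of 0.0134, 0.0573, 0.0554, 0.0237 and 0.0946. WT replicate 3 and the lowest M1BP RNAi library were close for ValRS (19.4 and 19.9 CPM), TrpRS (24.5 and 25.2) and MetRS (19.5 and 20.6). The gap was wider for GlyRS (28.1 and 33.8 CPM) and AsnRS (27.4 and 30.1). Over the alternative settings the log2 fold change ranged from 0.05 to 0.45 for ValRS, 0.16 to 0.56 for TrpRS and 0.14 to 0.71 for MetRS. LeuRS and LysRS, for leucine and lysine, had log2 fold changes of 0.33 ± 0.14 and 0.31 ± 0.15 (SE), but WT replicate 3 lay within the M1BP RNAi range for both. At 58.1 CPM for LeuRS and 78.7 CPM for LysRS, that library was far from WT replicates 1 and 2, which were at 46.8 and 40.1 CPM for LeuRS and 54.1 and 57.6 CPM for LysRS.

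Below WT, after ArgRS, came ThrRS and GluProRS, the threonine enzyme and the fused enzyme for glutamate and proline, which are among the most abundant synthetase transcripts of the cytosol. ThrRS was at 131, 119 and 149 CPM in WT and at 106, 120 and 125 CPM in M1BP RNAi. GluProRS was at 182, 145 and 207 CPM in WT and at 160.0, 160 and 153 CPM in M1BP RNAi. The M1BP RNAi libraries of GluProRS lay wholly inside the WT range and those of ThrRS partly inside it, and the log2 fold changes were -0.19 ± 0.11 and -0.18 ± 0.13 (SE; edgeR adjusted p = 0.245 and 0.360). The groups also overlapped for GlnRS, IleRS, AspRS, CysRS and TyrRS, with log2 fold changes of -0.16, -0.14, -0.14, -0.10 and 0.07. None of these 5 had an edgeR adjusted p below 0.244.

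**Figure D2:**
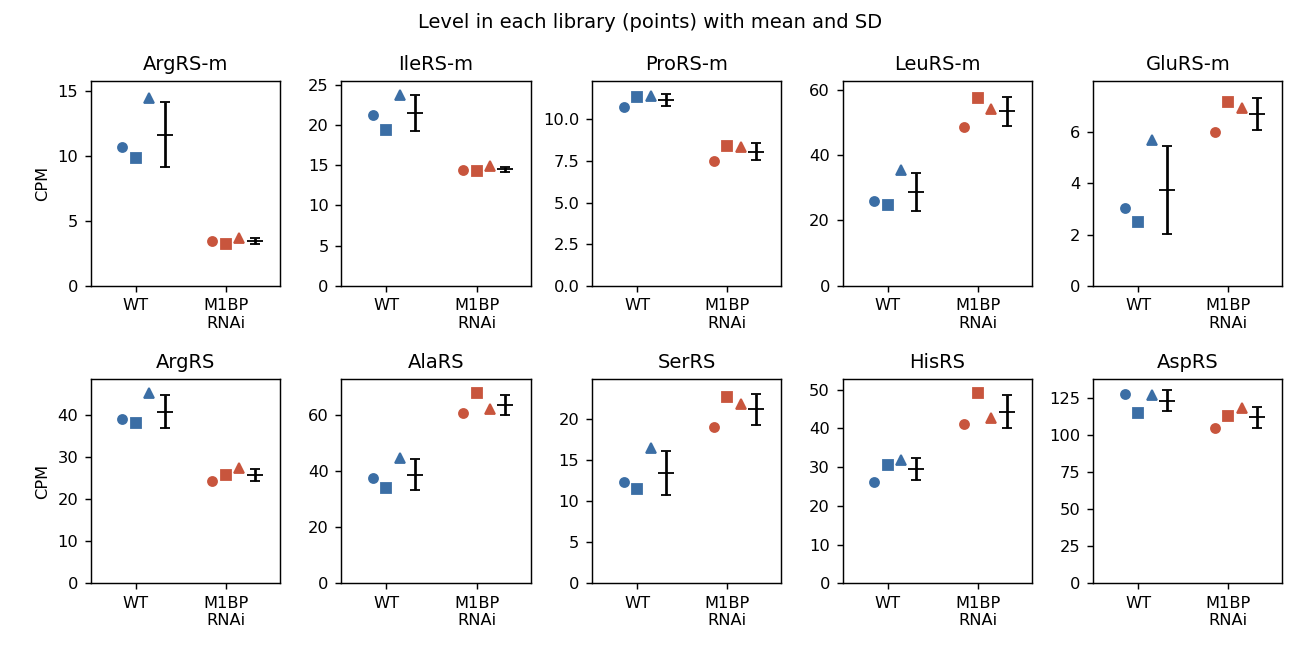
CPM (y axis, from 0) of 10 synthetase genes in each library; blue points are WT and red points M1BP RNAi, with circle, square and triangle for replicates 1, 2 and 3, and the black bar is the mean with its SD (n = 3). The groups stand clear of each other in every panel except AspRS, whose M1BP RNAi libraries reach into the WT range, and the WT triangle lies close to the M1BP RNAi points for GluRS-m.

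The mitochondrial enzymes lay on both sides of WT. LeuRS-m, GluRS-m and AlaRS-m were furthest above WT. LeuRS-m, for leucine, was at 25.9, 24.7 and 35.4 CPM in WT and at 48.5, 57.5 and 54.0 CPM in M1BP RNAi. Its groups did not overlap, and the log2 fold change of 0.90 ± 0.15 (SE) was the highest of all 33 genes (edgeR adjusted p = 0.00561). DESeq2 called LeuRS-m higher, as did edgeR without WT replicate 3 (adjusted p = 4.75e-04). GluRS-m, for glutamate, was at 3.02, 2.47 and 5.69 CPM in WT and at 6.00, 7.19 and 6.96 CPM in M1BP RNAi. WT replicate 3 of GluRS-m was thus nearer to the knockdown libraries than to its own group, and the log2 fold change of 0.84 ± 0.30 (SE; edgeR adjusted p = 0.0752) was 0.10 with roX1 as a covariate. AlaRS-m, for alanine, was at 51.8, 45.1 and 69.2 CPM in WT and at 74.7, 84.9 and 79.0 CPM in M1BP RNAi. Here too the gap between WT replicate 3 and the lowest knockdown library was small, and the log2 fold change was 0.52 ± 0.16 (SE; edgeR adjusted p = 0.0467).

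On the lower side, IleRS-m and ProRS-m followed ArgRS-m. IleRS-m, for isoleucine, was at 21.3, 19.4 and 23.8 CPM in WT and at 14.4, 14.3 and 14.9 CPM in M1BP RNAi. The groups were well apart (log2 fold change -0.57 ± 0.09 SE, edgeR adjusted p = 0.00538). ProRS-m, for proline, was at 10.8, 11.3 and 11.4 CPM in WT and at 7.50, 8.39 and 8.31 CPM in M1BP RNAi. In this gene WT replicate 3 lay close to the other controls, and the log2 fold change was -0.47 ± 0.09 (SE; edgeR adjusted p = 0.00740). ValRS-m and PheRS-m, for valine and phenylalanine, were also below WT in all 3 knockdown libraries, by log2 fold changes of -0.46 ± 0.09 and -0.33 ± 0.08 (SE; edgeR adjusted p = 0.0109 and 0.0185).

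Smaller differences were seen for the remaining mitochondrial enzymes. CysRS-m, SerRS-m and TyrRS-m had log2 fold changes of -0.28, -0.25 and -0.19, each with all M1BP RNAi libraries below WT and an edgeR adjusted p of 0.0580 to 0.0679. The direction of these changes rests on the TMM scaling between libraries. AspRS-m and MetRS-m, for aspartate and methionine, had all M1BP RNAi libraries above WT, with log2 fold changes of 0.43 ± 0.12 and 0.39 ± 0.13 (SE). For MetRS-m, WT replicate 3 was at 22.8 CPM and the lowest M1BP RNAi library at 23.2 CPM. Its log2 fold change ranged from 0.06 to 0.58 over the alternative settings. AspRS-m was one of the genes in which WT replicate 3, at 37.5 CPM, was the lowest control, next to 49.3 and 38.6 CPM in WT replicates 1 and 2 and 53.4 to 60.0 CPM in M1BP RNAi. AsnRS-m and TrpRS-m had overlapping groups and log2 fold changes of 0.14 and 0.05. They were the only mitochondrial enzymes whose groups overlapped. Groups without overlap were counted for 13 of the 15 mitochondrial and 9 of the 18 cytosolic enzymes, and for 46.5% of all genes tested; the difference between the compartments was not tested.

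The levels per length show which enzymes are abundant in this muscle (FPKM, CPM per kilobase of exon). In WT the cytosolic enzymes ranged from 3.15 ± 0.620 FPKM for CysRS, the cysteinyl-tRNA synthetase, to 54.3 ± 3.13 FPKM for AspRS, the aspartyl-tRNA synthetase (SD, n = 3), with a median of 12.5 FPKM. CysRS was at 7.99, 6.08 and 9.09 CPM in WT and at 6.90, 7.57 and 7.13 CPM in M1BP RNAi, while AspRS was at 128, 115 and 127 CPM in WT and at 105, 113 and 119 CPM in M1BP RNAi. The groups overlapped at both ends of the cytosolic scale. AspRS shares 154 exonic bases with asRNA:CR43468 on the same strand, and 1575 with Nmda1 and asRNA:CR45141 on the opposite strand. The mitochondrial enzymes spanned a wider range of WT levels, from 2.19 ± 1.01 FPKM for GluRS-m to 87.2 ± 3.95 FPKM for PheRS-m (SD, n = 3), with a median of 9.45 FPKM. PheRS-m, the most abundant of all 33 per length, was at 127, 138 and 134 CPM in WT and at 98.2, 107 and 112 CPM in M1BP RNAi, without overlap. ArgRS-m, at 4.24 ± 0.901 FPKM, already ranked second lowest of the mitochondrial enzymes in WT, and at 1.26 ± 0.0893 FPKM it was the least abundant of all 33 in M1BP RNAi (SD, n = 3).

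**Figure D3:**
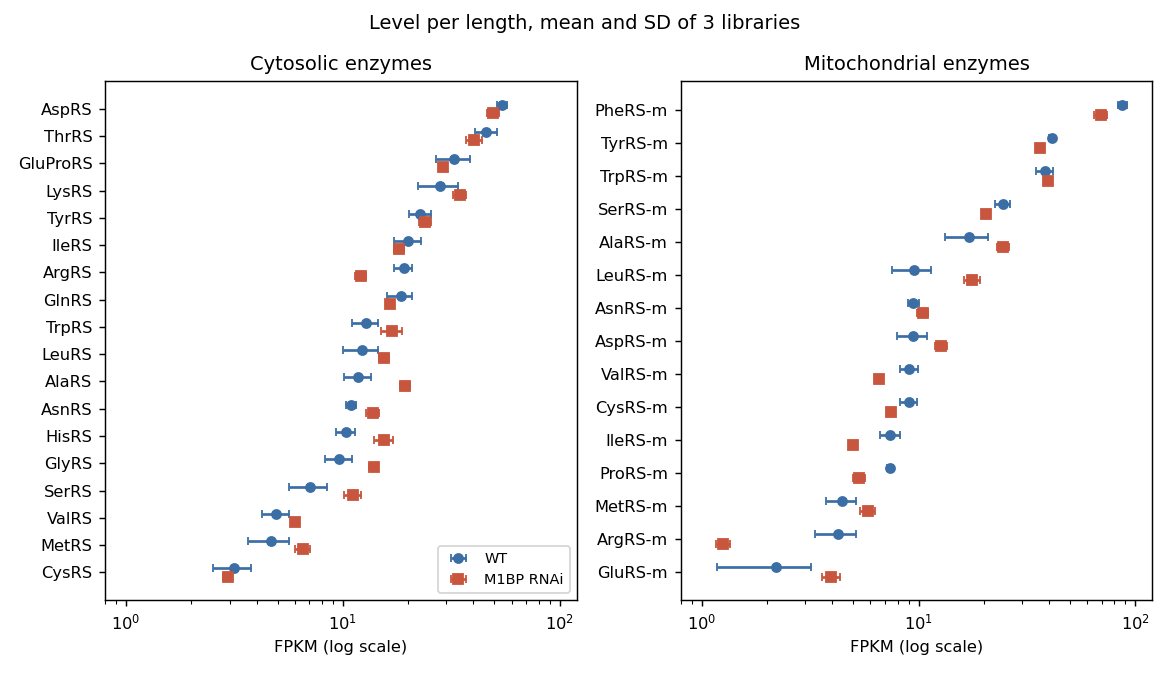
Level per length in FPKM (x axis, log scale) of each cytosolic (left) and mitochondrial (right) synthetase transcript, as mean and SD of 3 libraries, in WT (blue circles) and M1BP RNAi (red squares), ordered by the WT level. PheRS-m was highest at 87.2 FPKM in WT, and ArgRS-m moved from 4.24 to 1.26 FPKM.

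Summed over each compartment, the levels overlapped between the groups. The 18 cytosolic transcripts together were at 926, 838 and 1069 CPM in WT and at 928, 1016 and 999.6 CPM in M1BP RNAi. The 15 mitochondrial transcripts together were at 601, 572 and 654 CPM in WT and at 581.0, 629.9 and 625 CPM in M1BP RNAi. In both sums WT replicate 3 was the highest library. ArgRS-m made up 1.77%, 1.72% and 2.21% of the mitochondrial sum in the WT libraries and 0.591%, 0.512% and 0.594% in the M1BP RNAi libraries. For these genes the replicates agreed more closely in M1BP RNAi than in WT. The median coefficient of variation was 13.7% in WT and 6.09% in M1BP RNAi, and it was larger in WT for 29 of the 33 genes. WT replicate 3 lay above the mean of the other controls for 31 of the 33. The coefficient of variation over all genes was not computed.

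Compared as lists, the cytosolic enzymes were centred on a log2 fold change of 0.30 (median; 11 values above 0 and 7 below), and the mitochondrial enzymes on one of -0.19 (7 above and 8 below). The median over all genes tested was -0.02. Relative to the WT mean, the cytosolic median was at -0.05, -0.17 and 0.20 in the WT libraries and at 0.20, 0.34 and 0.32 in M1BP RNAi, on the log2 scale. WT replicate 3 was thus level with the lowest M1BP RNAi library. The mitochondrial median was at -0.03, -0.13 and 0.13 in WT and at -0.22, -0.15 and -0.18 in M1BP RNAi. Set against WT replicate 3 alone, the control library that also holds roX1, the medians of the log2 ratios were 0.03 for the cytosolic and -0.15 for the mitochondrial enzymes. With roX1 as a covariate the cytosolic median was -0.04 and the mitochondrial one -0.14. With WT replicate 1, 2 or 3 left out, the cytosolic median was 0.26, 0.23 or 0.44. It thus stayed above 0 whichever control was left out. The cytosolic median was near 0 against WT replicate 3 alone and with roX1 as a covariate, settings that both lean on that library. The part of roX1 in it was not tested beyond these values.

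**Figure D4:**
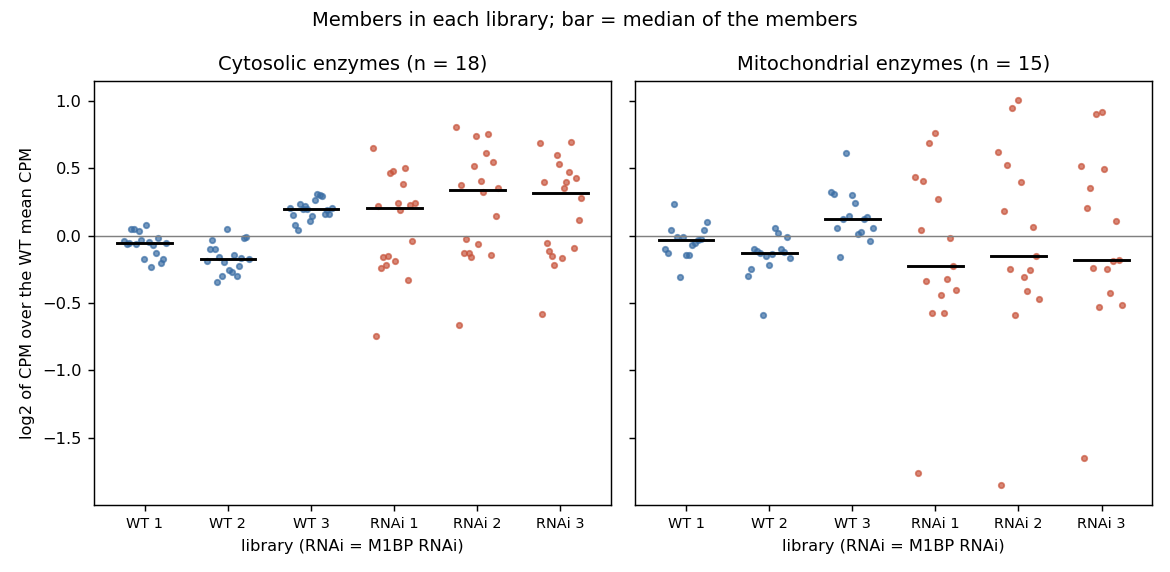
Each point is 1 synthetase gene in 1 library, as log2 of its CPM over its WT mean CPM (y axis), for the cytosolic (left) and mitochondrial (right) enzymes; black bars are the medians over the genes of a panel. In the cytosolic panel WT replicate 3, with a median of 0.20, sits beside M1BP RNAi replicate 1, also at 0.20, and in the mitochondrial panel the points of ArgRS-m lie far below the others in M1BP RNAi.

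The 2 families of protein that build the ribosomes of the same compartments served as a comparison. Among 84 cytosolic ribosomal protein genes tested, 15 were called lower and 0 higher; the median was -0.43 on the log2 scale and 79 values were below 0. Among 72 mitochondrial ribosomal protein genes, 3 were called lower and 0 higher, with a median of -0.10. The shares called were 17.9% and 4.17%, beside 5.09% of all genes tested. These are counts and medians of the main fit with no test, to be read beside the cytosolic synthetase median of 0.30 in that fit. With roX1 as a covariate the synthetase median was -0.040, and ribosomal protein medians were not computed for that fit.

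The enzymes fall into 2 unrelated structural classes, which differ in the fold of the catalytic domain. The median log2 fold change was 0.07 over the 9 cytosolic class I enzymes and 0.43 over the 8 of class II, with GluProRS holding a domain of each class. In mitochondria the medians were -0.19 for the 9 enzymes of class I and -0.06 for the 6 of class II. Another division is by the multi-synthetase complex, whose members are taken here from mammals: ArgRS, AspRS, GlnRS, GluProRS, IleRS, LeuRS, LysRS and MetRS. Over these 8 the median log2 fold change was -0.14, with 3 above 0, and the 10 cytosolic enzymes outside the complex a median of 0.37, with 8 above 0. At an adjusted p of 0.05, 1 of the 8 was lower and 0 higher, and of the 10 others 0 were lower and 5 higher, beside 16.9% lower and 13.8% higher among all genes; the difference between these groups of enzymes was not tested. The splits by class and by complex are not independent, since 5 of the complex members are of class I and 6 of the enzymes outside it are of class II.

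For 12 amino acids both a cytosolic and a mitochondrial enzyme were measured, so each can be compared within a library, free of the scaling between libraries. In 8 of the 12 both enzymes had fold changes of the same sign: both were above WT for alanine, asparagine, leucine, methionine and tryptophan, and both below for arginine, cysteine and isoleucine. For aspartate, serine, tyrosine and valine the signs were opposite. GluProRS was paired with both GluRS-m and ProRS-m, which gave 14 pairs in all. The ratio of mitochondrial to cytosolic CPM was lower in every M1BP RNAi library than in every WT library for 9 pairs and higher in 3, and the groups overlapped in 2, those of methionine and tyrosine. Each of the 12 reached the smallest two-sided p that an exact permutation test of 3 libraries against 3 can give, 0.1, or 0.117 after adjustment over the 14 pairs. Among single genes tested, 46.5% had groups without overlap, and the share for ratios of other gene pairs was not computed. The pairs are not independent, since GluProRS enters 2 of them.

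Among the 9 pairs whose ratio was lower, those of arginine, serine and valine differed most. The ratio of SerRS-m to SerRS was 4.97, 5.04 and 4.11 in WT and 2.62, 2.30 and 2.50 in M1BP RNAi. That of ValRS-m to ValRS was 1.95, 1.76 and 1.57 in WT and 1.12, 0.989 and 1.01 in M1BP RNAi. In these pairs the cytosolic transcript was above WT and the mitochondrial one below. The ratio of ArgRS-m to ArgRS was 0.274, 0.258 and 0.320 in WT and 0.141, 0.126 and 0.136 in M1BP RNAi, so the mitochondrial enzyme was lower even relative to a cytosolic partner that was itself below WT.

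The ratio moved towards the mitochondrial enzyme for leucine, aspartate and glutamate. LeuRS-m over LeuRS was 0.554, 0.615 and 0.609 in WT and 0.849, 0.899 and 0.876 in M1BP RNAi. WT replicate 3 lay between the other controls for this pair. AspRS-m over AspRS was 0.386, 0.336 and 0.295 in WT and 0.528, 0.532 and 0.450 in M1BP RNAi. GluRS-m over GluProRS was 0.0165, 0.0171 and 0.0275 in WT and 0.0375, 0.0451 and 0.0454 in M1BP RNAi. WT replicate 3 was the control farthest from the knockdown group for aspartate and the nearest to it for glutamate.

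**Figure D5:**
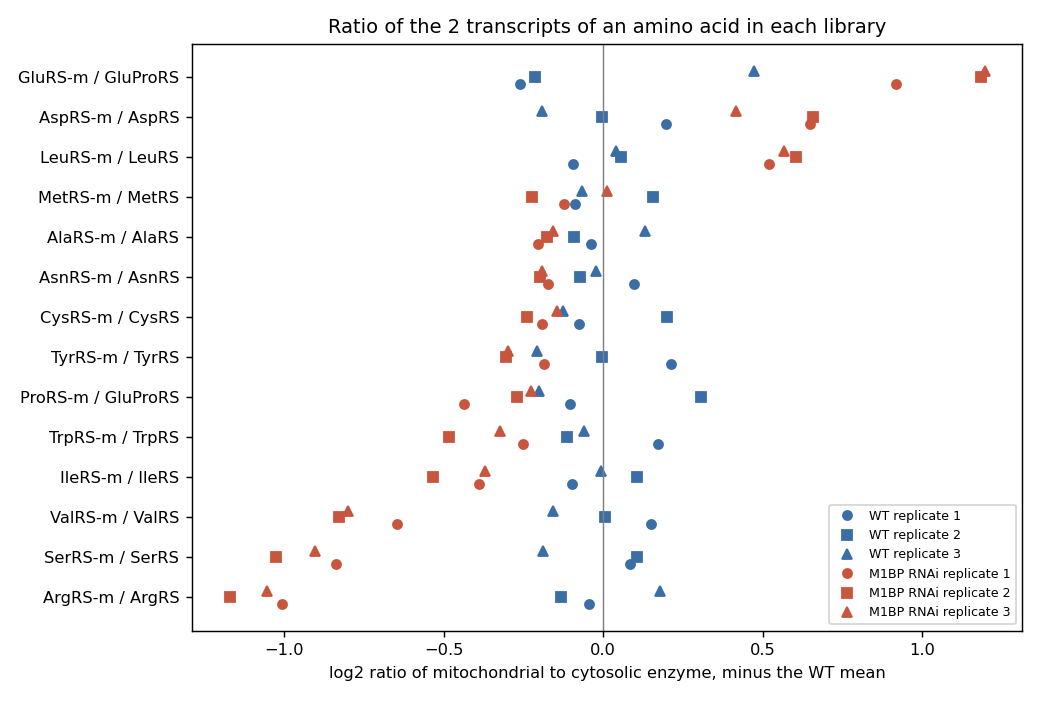
Log2 ratio of the mitochondrial to the cytosolic transcript for 14 pairs, minus the mean of the WT libraries (x axis), with 1 point per library; blue is WT and red is M1BP RNAi. ArgRS-m over ArgRS and SerRS-m over SerRS lie furthest to the left, GluRS-m over GluProRS, AspRS-m over AspRS and LeuRS-m over LeuRS lie to the right, and the groups overlap for methionine and tyrosine.

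Glutamine, glycine, histidine, lysine and threonine have a cytosolic symbol and no mitochondrial one. In human cells single genes supply both compartments with the glycine and lysine enzymes, and mitochondrial glutamine tRNA is charged with glutamate and then converted by the GatCAB amidotransferase. The 5 cytosolic enzymes, GlnRS, GlyRS, HisRS, LysRS and ThrRS, had log2 fold changes of -0.16, 0.53, 0.59, 0.31 and -0.19.

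The 33 genes are spread over the genome, with 3 on chromosome X (ArgRS, HisRS and LysRS, all cytosolic). Their log2 fold changes of -0.66, 0.59 and 0.31 did not share a direction, and with roX1 as a covariate they were -0.86, 0.46 and -0.10. GluRS-m and TyrRS are neighbours on the reverse strand of 3L, GluRS-m at 16415292 to 16417177 and TyrRS at 16417349 to 16419302. GluRS-m had a log2 fold change of 0.84 and TyrRS one of 0.07. CG33158, which starts 295 bases from TyrRS on the opposite strand, rose from 5.88, 5.67 and 7.95 CPM in WT to 20.5, 22.9 and 18.4 CPM in M1BP RNAi (log2 fold change 1.66 ± 0.16 SE, edgeR adjusted p = 5.82e-04). CG33158 was the only called gene among the 22 divergent neighbours tested, beside 5.09% of all genes tested. TyrRS itself had overlapping groups.

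Partners of the enzymes were followed through lists. Of 10 partner genes, which include the PheRS subunits, the scaffold proteins AIMP1, AIMP2 and AIMP3 and the subunits of GatCAB, 0 were called. At an adjusted p of 0.05, 1 was higher and 4 were lower, beside 13.8% higher and 16.9% lower among all genes tested. The unadjusted p was under 0.05 for 6 of the 10, and for 41.4% of all genes tested. Of 6 cytosolic elongation factors, which carry charged tRNA to the ribosome and move it on, 0 were called. At an adjusted p of 0.05, 4 of the 6 were lower, beside 16.9% of all genes tested, and all 6 fold changes were below 0. Of 4 mitochondrial elongation factors 1 was called, beside 5.09% of all genes tested. It was mEFG1, the translocase of mitochondrial translation, which fell from 161, 149 and 155 CPM in WT to 97.7, 101 and 97.0 CPM in M1BP RNAi. WT replicate 3 was no outlier for mEFG1, and the log2 fold change was -0.65 ± 0.06 (SE, edgeR adjusted p = 5.77e-04).

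Uncharged tRNA activates the kinase Gcn2, and translation of the factor encoded by crc then rises, in a response whose targets in mammals include many cytosolic synthetase genes. Of 5 genes listed for this and related stress responses (crc, Gcn2, PEK, Thor and Xrp1), 1 was called. Xrp1, which encodes a stress-induced transcription factor, was at 195, 177 and 144 CPM in WT and at 566, 573 and 570 CPM in M1BP RNAi. The libraries of Xrp1 were far apart between groups, and the log2 fold change was 1.73 ± 0.11 (SE, edgeR adjusted p = 1.29e-04). At an adjusted p of 0.05, 2 of the 5 were higher and 1 lower, beside 13.8% higher and 16.9% lower among all genes tested. Besides Xrp1, crc was higher and PEK lower, with log2 fold changes of 0.49 ± 0.07 and -0.49 ± 0.08 (SE, edgeR adjusted p = 0.00264 and 0.00427). Of 6 genes of amino acid synthesis 0 were called, 1 was higher at an adjusted p of 0.05 and 1 had an unadjusted p under 0.05.

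The tRNAs that the mitochondrial enzymes charge are encoded by 22 genes of the mitochondrial genome, of which 19 had enough counts to be tested. Counts on them in poly(A) libraries do not measure mature tRNA. One gene, trnV, was called: the gene of valine tRNA rose from 0.662, 0.515 and 0.529 CPM in WT to 80.8, 141 and 103 CPM in M1BP RNAi. The groups were far apart for trnV, with a log2 fold change of 7.55 ± 0.28 (SE, edgeR adjusted p = 2.41e-05), whereas ValRS-m, its enzyme, had a log2 fold change of -0.46. At an adjusted p of 0.05, 8 of the 19 were higher and 0 lower, beside 13.8% higher and 16.9% lower among all genes tested. The arginine enzyme ArgRS-m and trnR, the gene of its tRNA, had log2 fold changes of -1.75 and 3.65 (edgeR adjusted p = 0.00319 for trnR). The other tRNA genes higher at an adjusted p of 0.05 had enzymes with fold changes of either sign. For trnA, trnD and trnN the enzyme's fold change was above 0, and for trnC, trnS2 and trnY it was below 0. A relation between tRNA gene and enzyme was not tested.

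Cell composition was followed through marker lists. Of the 6 flight muscle markers 1 was called, beside 5.09% of all genes tested. It was Act88F, the flight muscle actin, which fell from between 36891 and 39060 CPM in WT to between 22509 and 24389 CPM in M1BP RNAi (log2 fold change -0.70 ± 0.07 SE, edgeR adjusted p = 7.59e-04). All 6 markers were lower without overlap, beside 25.0% of all genes tested. The summed levels in WT and M1BP RNAi were 69.1 to 234 and 129 to 212 CPM for 5 fat body markers, 4.38 to 8.04 and 6.15 to 11.0 CPM for 5 haemocyte markers, 14.8 to 24.2 and 14.3 to 18.5 CPM for 5 neuron markers, and 236 to 307 and 224 to 274 CPM for 4 tracheal markers. WT replicate 2 was the highest library of the fat body sum, well above the other controls. The sums overlapped between groups for these 4 lists, and no marker was at 0 in any library. At an adjusted p of 0.05, 2 of the 5 haemocyte markers were higher and 0 of the fat body, neuron and tracheal ones differed. Among all genes tested 13.8% were higher and 16.9% lower at that threshold. The part of cell composition in the synthetase values was not tested.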

How the data were processed

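RNA-seq of 6 libraries was analysed from the raw read counts per gene that the authors deposited (uniquely mapped reads on dm6, per the file headers; featureCounts of Subread 2.0.3, per the submitters' processing notes). The aligner is not given in the sources used here. A second deposited table holds the authors' own comparison (fold changes and p-values); its gene symbols were used and its values were not. One line of the count table names no gene and held 0 counts.

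Counts were tested with edgeR 4.0.16 (R 4.3.3; TMM scaling, edgeR's filter on low counts, quasi-likelihood test, group as the only term) over all genes, with Benjamini-Hochberg adjustment; a gene was called at an adjusted p of 0.001 or less and at least 1.5-fold, the threshold of the study's methods. SE is the log2 fold change divided by the square root of F. A count of 3, the detection floor, equals 0.0542 to 0.103 CPM and covers counting error only. Coordinates and exon lengths are those of the count table, and all 33 genes had the same ends in Ensembl BDGP6.54. The code was tested on simulated data. Per the study's methods the replicates are independent biological ones, each a separate RNA preparation of pooled pupae; every pair differed by more than sampling noise.

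Every gene of the set was named; full values were given for called genes, the 3 largest rises and falls of each compartment, and the most and least abundant per length. Of the companion lists, called genes were named, except ribosomal proteins, which were given as counts and medians. ArgRS-m's neighbours, its overlapping gene, crc, PEK, trnR and the other uncalled tRNA genes named were added after values were seen. The members and lists were chosen with earlier results of these data known. Alternatives were DESeq2 1.42.0, RLE scaling, other filters and thresholds, leaving out mitochondrial genes, roX1 as a covariate, the replicate number as a block, each library left out and, for ratios, 5 counts added. Promoter and protein sequences were not analysed here.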

Additional observations from a re-analysis of the deposited data

How the results depend on the processing

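DESeq2 called 572 genes higher and 478 lower in place of 194 and 254 by edgeR, or 11.2% of the genes it tested, and among the synthetases 3 higher (AlaRS, HisRS and LeuRS-m; 2 cytosolic, 1 mitochondrial) and 2 lower (ArgRS and ArgRS-m; 1 cytosolic). The looser threshold (adjusted p 0.05, any fold) gave 1212 higher and 1489 lower genes, and synthetases 8 higher and 6 lower (cytosolic 5 and 1, mitochondrial 3 and 5). With roX1 as a covariate 44 genes were called higher and 128 lower. The cytosolic median was then -0.040, and the difference of the medians, mitochondrial minus cytosolic, was -0.10 in place of -0.49. The fold changes of LysRS (-0.10), TrpRS-m (-0.12) and TyrRS (-0.14) turned sign, and the cause was not tested. Since roX1 largely follows the group except in WT replicate 3, that fit leans on this control.

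The replicate block called 75 genes higher and 116 lower, and it left the synthetase calls at 0 higher and 1 lower. Each M1BP RNAi library correlated best with the WT library of its own number, at 0.343, 0.093 and 0.357. Seen from the controls, WT replicate 2 correlated better with M1BP RNAi replicate 1 (0.178). The labels name no pairs, so the main fit had no block. Whether same-numbered libraries share a batch was not tested.

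With each library left out, 26 to 246 genes were called higher and 44 to 231 lower. The synthetases then had 0 to 2 called higher (cytosolic 0 to 1, mitochondrial 0 to 1) and 0 to 1 lower (mitochondrial 0 to 1), and the difference of the medians was -0.58 to -0.39. Without WT replicate 3, AlaRS and LeuRS-m were called higher and CysRS turned sign, with a range of -0.23 to 0.074 over the 6 fits. Of the single-gene values, 190 of those with a library left out and 277 of the others kept their direction and side of the threshold. With a library left out, 5 lost the call, 2 gained one and 1 turned sign. Among the others these numbers were 0, 17 and 3. Settings that changed only the thresholds used the values of the main fit, so no direction could turn there. Adding 5 counts turned no ratio. Depth was least for GluRS-m, which held 72 counts in its lowest library.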
